A study of Mus musculus with 10 samples.

Results

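Collagen modifying and crosslinking enzymes act on collagen chains before and after they leave the cell, and the 10 genes of this group in the deposited table, chosen by gene symbol alone, were *Lox*, *Loxl1*, *Loxl2*, *Loxl3*, *Plod1*, *Plod2*, *Plod3*, *P4ha1*, *P4ha2* and *Serpinh1*. They were 10 of the 55359 genes listed, and all 10 were among the 13548 genes that passed the filter on low values (0.5 FPKM or more as the mean of all libraries). FPKM scales fragment counts by the length of the transcript and the size of the library. It does not correct for GC content, on which comparisons between genes and between libraries may also depend.

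The RNA came from C2C12, an established line of mouse myoblasts that exit the cell cycle and form myotubes once serum is lowered. Both groups were grown with fetal bovine serum, transfected with 100 nM of siRNA and, per the labels, collected after 4 days of differentiation in a high glucose medium that held horse serum at 2%. The 5 si-*Fndc1* libraries carried an siRNA against *Fndc1*, a secreted protein with fibronectin type III domains, and the 5 si-Control libraries carried a scrambled siRNA. As a model these groups are limited to a single cell line with a transient and partial knockdown, and nothing in the labels says whether libraries of a group came from separate cultures, so p-values measure the spread between these libraries, which may be technical. The series' own description gives an earlier collection time after transfection than the labels do, and which is right was not tested. The question the comparison addresses is which transcripts change when *Fndc1* is reduced in differentiating myoblasts.

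Collagen chains are hydroxylated in the endoplasmic reticulum before they fold. Prolyl 4-hydroxylases modify proline, which stabilises the triple helix, and lysyl hydroxylases modify lysine, which sets the kind of crosslink formed later. Both kinds of enzyme use iron, oxygen, 2-oxoglutarate and ascorbate. *Serpinh1* encodes HSP47, a chaperone that binds the folded procollagen helix until export, and enzymes of the lysyl oxidase family, which contain copper, then oxidise lysine and hydroxylysine outside the cell to start the crosslinks that give muscle matrix its stiffness.

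Reads counted on genes numbered between 66771605 and 75995168 in the si-Control libraries and between 56332844 and 72839369 in the si-*Fndc1* libraries, of which si-*Fndc1* 5 had the fewest. *Fndc1* itself measured 26.7, 24.7, 28.7, 29.6 and 29.2 FPKM in si-Control 1 to 5 and 20.4, 23.5, 20.8, 21.1 and 18.7 FPKM in si-*Fndc1* 1 to 5. The groups did not overlap, and the remaining level was 0.752 of the control mean (log2 fold change -0.40, standard error 0.07, adjusted p = 0.000934 by edgeR). Here and below, adjusted p-values come from the quasi-likelihood test in edgeR with Benjamini and Hochberg's adjustment over all tested genes. All 10 myoblast and myotube markers were tested. Of these 3 rose (*Myod1*, *Mymk* and *Ckm*) and 1 fell (*Mymx*), against 34.4% of all tested genes called in either direction. With the offset for GC content and length described below, *Myod1*, *Ckm* and *Des* rose and *Myf5*, *Myog* and *Mymx* fell. *Mymk* was not called in that fit (adjusted p = 0.102). The summed level of the 10 markers was 3539 to 3961 FPKM in si-Control and 3345 to 4067 FPKM in si-*Fndc1*. Of 10 hepatocyte markers, 9 were tested and all 9 rose, from a summed level of 0.0443 to 5.25 FPKM in si-Control to 43.1 to 159 FPKM in si-*Fndc1*, with si-*Fndc1* 5 the lowest. Of 5 fibroblast markers, 3 were tested, of which *Dcn* rose and *Pdgfrb* fell, and their sum was 93.6 to 103 FPKM against 82.9 to 88.8 FPKM. The endothelial and adipocyte markers summed to less than 0.1 FPKM in each library, and the leukocyte markers to at most 1.17 FPKM. The part that these transcripts, or the depth of si-*Fndc1* 5, have in the results below was not tested. Since whole wells were sequenced, fewer cells of a type and less RNA per cell cannot be told apart.

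In si-*Fndc1*, *Lox*, *Plod2* and *P4ha1* rose by 9.75% to 11.8%, *Loxl1* fell by 22.3%, *Plod1* fell by 7.74% and the other 5 genes did not pass the test (with an offset for GC content and length, described below, *Lox*, *Plod2* and *P4ha1* were not called, *Plod1* turned to a called rise and *Loxl1* fell by less). The 3 rises and 2 falls compare with 34.4% of all tested genes called in either direction, 17.3% higher and 17.2% lower. In 4 of the 10 genes the groups were fully apart (*Lox*, *Loxl1*, *Plod2* and *P4ha1*), against 25.1% of all tested genes. The median log2 fold change was 0.013 over the 10 genes and 0.0043 over all tested genes, and the median of its absolute size was 0.14 and 0.17. The sizes of the changes were thus close to those of all tested genes, while without the offset the shares called and fully apart lay above theirs. With the offset 2 of the 10 genes were called, against 22.6% of all genes in that fit. With 10 genes these shares cannot show whether the group stood apart as a group, which was not tested.

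**Figure D1:**
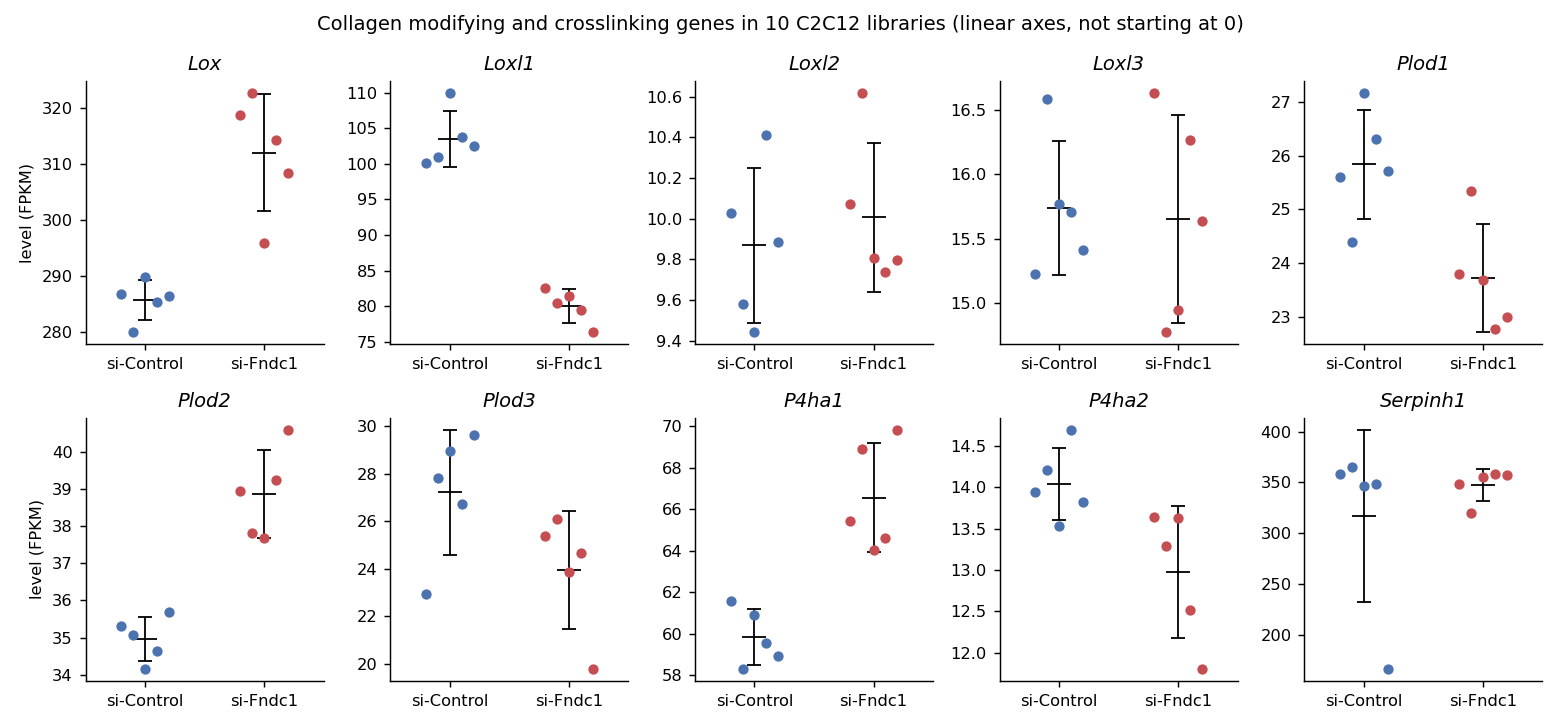
Level of each gene in FPKM (vertical axes, linear, not starting at 0) in the 5 si-Control and 5 si-*Fndc1* libraries; points are libraries in order of their number and black bars the mean and SD. *Lox*, *Plod2* and *P4ha1* sit higher and *Loxl1* lower in all si-*Fndc1* libraries, and *Serpinh1* is at 166 FPKM in si-Control 5 alone.

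In si-Control the levels spanned a 32.1-fold range. *Serpinh1* (317 FPKM) and *Lox* (286 FPKM) were the most abundant, followed by *Loxl1* (103 FPKM), *P4ha1* (59.8 FPKM), *Plod2* (35.0 FPKM), *Plod3* (27.2 FPKM), *Plod1* (25.8 FPKM), *Loxl3* (15.7 FPKM), *P4ha2* (14.04 FPKM) and *Loxl2* (9.87 FPKM). Among neighbours in that order, the ranges of the si-Control libraries overlapped for *Serpinh1* with *Lox* and for *Plod3* with *Plod1*, and for no other neighbours. A single gene supplied most of the transcript of the lysyl oxidases (*Lox*) and of the prolyl 4-hydroxylase alpha subunits (*P4ha1*), while the lysyl hydroxylases were more even.

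Of the catalytic alpha subunits of prolyl 4-hydroxylase, *P4ha1* rose by 11.8% (not called with the GC content and length offset) and *P4ha2* did not pass the test, and their difference is given below as a share. *P4ha1* (ENSMUSG00000019916, listed on chromosome 10 from 59159118 to 59209126, plus strand) measured 61.6, 58.3, 60.9, 59.6 and 58.9 FPKM in si-Control 1 to 5 and 65.4, 68.9, 64.0, 64.6 and 69.8 FPKM in si-*Fndc1* 1 to 5. Every si-*Fndc1* library lay above every si-Control library, with si-*Fndc1* 2 and 5 the highest. The log2 fold change was 0.16 (standard error 0.03, 95% interval 0.09 to 0.23, adjusted p = 0.00266 by edgeR), from 59.8 ± 1.36 to 66.6 ± 2.63 FPKM (SD, n = 5 each). *P4ha2* (ENSMUSG00000018906, chromosome 11 from 53990921 to 54022488, plus strand) measured 13.9, 14.2, 13.5, 14.7 and 13.8 FPKM in si-Control and 13.6, 13.3, 13.6, 12.5 and 11.8 FPKM in si-*Fndc1*. The groups overlapped, with the low values in si-*Fndc1* 4 and 5, and the log2 fold change of -0.11 (95% interval -0.21 to -0.0042, adjusted p = 0.1003 by edgeR) did not pass. Of the other subunits of the enzyme, *P4ha3* had a log2 fold change of -0.0027 (adjusted p = 0.987) and *P4hb*, the beta subunit that is also protein disulfide isomerase, had 0.05 (adjusted p = 0.199). With the GC content and length offset *P4ha3* was at 0.07 (adjusted p = 0.666) and *P4hb* rose (0.08, adjusted p = 0.0435).

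Prolyl 4-hydroxylase subunits are well known as targets of hypoxia-inducible factor (HIF), so the starts of both genes, whose fold changes had opposite signs, are shown here with the HIF core in capitals. The windows run from 250 bases before to 50 bases after the gene start in RefSeq (GRCm38.p6), on the gene's strand, chr10:59323046-59323345 (plus strand) for *P4ha1* and chr11:54100674-54100973 (plus strand) for *P4ha2*. The letters searched were ACGTG and GCGTG on both strands, so that CACGT and CACGC mark matches on the other strand.
P4ha1: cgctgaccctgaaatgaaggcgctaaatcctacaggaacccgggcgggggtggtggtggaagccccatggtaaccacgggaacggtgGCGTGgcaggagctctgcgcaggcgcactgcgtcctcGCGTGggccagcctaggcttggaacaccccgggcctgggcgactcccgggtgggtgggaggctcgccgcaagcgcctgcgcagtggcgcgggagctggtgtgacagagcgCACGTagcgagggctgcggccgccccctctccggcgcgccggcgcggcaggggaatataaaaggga
P4ha2: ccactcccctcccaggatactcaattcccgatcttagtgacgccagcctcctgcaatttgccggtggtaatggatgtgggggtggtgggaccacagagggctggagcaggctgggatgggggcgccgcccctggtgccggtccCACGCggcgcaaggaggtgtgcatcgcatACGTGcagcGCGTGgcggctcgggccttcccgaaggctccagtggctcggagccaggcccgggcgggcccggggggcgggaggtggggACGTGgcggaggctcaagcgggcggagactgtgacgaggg
*P4ha1* held 1 match to ACGTG and 2 to GCGTG, and *P4ha2* held 2 of each. Matches to the letters on opposite strands may overlap (as in CACGTG), but none do in these windows. RefSeq windows were matched for 5 of the 10 genes (also *Plod1*, *Plod3* and *Serpinh1*), and each of the 5 held at least 1 match, whereas 43.8% of all 32851 windows of this length did (19.6% for ACGTG and 32.4% for GCGTG). Both windows shown had a GC content of 70.3%, against a median of 52.7% over all windows. A match is a description of the letters, and nothing about HIF binding follows from it.

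Among the lysyl hydroxylases, the transcript of *Plod2*, which acts on the telopeptides of collagen, rose, and that of *Plod1*, which acts on the helix, fell slightly, whereas with the GC content and length offset *Plod2* was at 0.01 (adjusted p = 0.846) and *Plod1* rose by 0.09 on the log2 scale (adjusted p = 0.0362). *Plod2* (ENSMUSG00000032374, chromosome 9 from 92424276 to 92490481, plus strand) measured 35.3, 35.1, 34.2, 34.6 and 35.7 FPKM in si-Control 1 to 5 and 38.9, 37.8, 37.7, 39.2 and 40.6 FPKM in si-*Fndc1* 1 to 5. All si-*Fndc1* libraries were above all si-Control libraries, and the log2 fold change was 0.16 (standard error 0.03, 95% interval 0.10 to 0.22, adjusted p = 0.00122 by edgeR). *Plod1* (ENSMUSG00000019055, chromosome 4 from 147994210 to 148021224, minus strand) measured 25.6, 24.4, 27.2, 26.3 and 25.7 FPKM in si-Control and 23.8, 25.3, 23.7, 22.8 and 23.0 FPKM in si-*Fndc1*. The groups overlapped through si-Control 2 and si-*Fndc1* 2, and the log2 fold change was -0.12 (95% interval -0.20 to -0.03, adjusted p = 0.0390 by edgeR). The *Plod1* call was lost when any library other than si-Control 2 or si-*Fndc1* 2 was left out (adjusted p from 0.0111 to 0.0943 over the 10 fits). *Plod3* (ENSMUSG00000004846, chromosome 5 from 137015873 to 137025502, plus strand), whose product also glycosylates hydroxylysine, measured 22.9, 27.8, 29.0, 26.7 and 29.6 FPKM in si-Control and 25.4, 26.1, 23.9, 24.7 and 19.8 FPKM in si-*Fndc1*. Its lowest values were si-Control 1 and si-*Fndc1* 5, the groups overlapped, and the log2 fold change was -0.18 (95% interval -0.36 to 0.01, adjusted p = 0.137 by edgeR). Without si-Control 1 it was -0.23 (adjusted p = 0.0451). *Plod3* shares 1003 bases with *Znhit1* on the opposite strand, whose mean count was 22.7% of that of *Plod3*, and since no source states whether strand was used in counting, reads of the pair may have been exchanged.

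The chaperone *Serpinh1* (ENSMUSG00000070436, chromosome 7 from 98994583 to 99002446, minus strand) did not pass the test, and si-Control 5 lay far below all other libraries. It measured 359, 365, 347, 349 and 166 FPKM in si-Control 1 to 5 and 348, 319.8, 355, 358 and 357 FPKM in si-*Fndc1* 1 to 5. si-Control 5 stood at 0.468 of the mean of the other si-Control libraries, with 30118 reads against 67059 to 74133. The log2 fold change over all libraries was 0.14 with a wide interval of -0.25 to 0.53 (adjusted p = 0.582 by edgeR). Without si-Control 5 it was -0.02 (95% interval -0.11 to 0.07, adjusted p = 0.715), with a control mean of 355 ± 8.62 FPKM (SD, n = 4). Over all libraries with the GC content and length offset, the log2 fold change was 0.22 (95% interval -0.17 to 0.61, adjusted p = 0.419). Departures of this kind were not particular to si-Control 5: of 5233 genes whose other 4 si-Control libraries lay within 0.3 of each other on the log2 scale, 13 were lower in it by more than 0.8, and the other libraries had 8 to 23 such genes each. The cause of the low *Serpinh1* value was not tested.

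In the lysyl oxidase family, *Lox* rose by 9.75% (with the opposite sign, and not called, under quantile normalization and with the GC content and length offset), *Loxl1* fell by 22.3%, and *Loxl2* and *Loxl3* did not pass the test. *Lox* (ENSMUSG00000024529, chromosome 18 from 52649139 to 52662939, minus strand), the main crosslinking enzyme of fibrillar collagen and elastin, measured 287, 280.0, 289.9, 285 and 286 FPKM in si-Control 1 to 5 and 319, 323, 296, 314 and 308 FPKM in si-*Fndc1* 1 to 5. The groups did not overlap, although si-*Fndc1* 3 lay close to the controls, and the log2 fold change was 0.13 (standard error 0.03, 95% interval 0.07 to 0.20, adjusted p = 0.00439 by edgeR), whereas it was -0.04 (adjusted p = 0.517) with limma on quantile-normalized FPKM. *Loxl1* (ENSMUSG00000032334, chromosome 9 from 58195021 to 58220469, minus strand), whose product is needed to maintain elastic fibres, measured 100.2, 101, 110.0, 104 and 103 FPKM in si-Control and 82.6, 80.4, 81.4, 79.4 and 76.3 FPKM in si-*Fndc1*. Each si-*Fndc1* library was far below the lowest control, and the log2 fold change of -0.36 (standard error 0.03, 95% interval -0.44 to -0.29, adjusted p = 4.2e-05 by edgeR) was the largest in size among the 10 genes.

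*Loxl2* and *Loxl3* were the low-level members of the family. *Loxl2* (ENSMUSG00000034205, chromosome 14 from 69846517 to 69933283, plus strand), which crosslinks collagen IV of basement membranes, measured 10.0, 9.58, 9.44, 10.4 and 9.89 FPKM in si-Control and 10.1, 10.6, 9.81, 9.74 and 9.80 FPKM in si-*Fndc1*, with a log2 fold change of 0.03 (95% interval -0.06 to 0.11, adjusted p = 0.624 by edgeR). *Loxl3* (ENSMUSG00000000693, chromosome 6 from 83011154 to 83029543, plus strand), which is required for palate and spine formation in mice, measured 15.2, 16.6, 15.8, 15.7 and 15.4 FPKM in si-Control and 16.6, 14.8, 14.9, 16.3 and 15.6 FPKM in si-*Fndc1*, with a log2 fold change of -0.0009 (95% interval -0.09 to 0.09, adjusted p = 0.989 by edgeR). For both genes the libraries of the groups were interleaved. Without the GC content and length offset, the intervals leave room for changes of up to 0.11 on the log2 scale. With it, *Loxl2* was at 0.075 (95% interval 0.0013 to 0.15, adjusted p = 0.134 by edgeR). *Loxl3* was then at 0.085 (95% interval -0.0071 to 0.18, adjusted p = 0.174 by edgeR). *Loxl3* overlaps *Htra2* on the opposite strand by 1297 bases, and the mean count of *Htra2* was 42.4% of that of *Loxl3*. For *Lox*, *Loxl2* and *Plod2* the overlapping genes on the other strand (*Gm41724*, *Gm27177* and *Gm38391*) held 0.217%, 1.70% and 0.951% of the member's mean count.

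Within families, the shares of summed FPKM differed between the groups as deposited, and did not pass the test once the trend with GC content and length was removed. A share does not depend on the single size factor of a library, but does depend on corrections that differ between genes. *Lox* made up 68.9, 68.1, 67.6, 68.1 and 68.5% of the summed FPKM of *Lox* and *Loxl1* to *Loxl4* in si-Control and 73.8, 74.7, 73.0, 74.3 and 74.6% in si-*Fndc1*, a rise of 5.83 percentage points. *Plod2* made up 39.8 ± 1.57% of the lysyl hydroxylases in si-Control and 44.9 ± 2.33% in si-*Fndc1* (SD, n = 5 each). The *Plod2* ranges came close, 37.8 to 42.1% against 42.4 to 48.7%, without overlapping.

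*P4ha2* made up 18.0 ± 0.619% of the *P4ha* subunits in si-Control and 15.5 ± 1.200% in si-*Fndc1* (SD, n = 5 each). The log2 ratio of *Serpinh1* to the sum of *Col1a1* and *Col1a2*, its main clients, was -0.71, -0.64, -0.86, -0.82 and -1.77 in si-Control 1 to 5 and -0.16, -0.31, -0.18, -0.11 and -0.03 in si-*Fndc1* 1 to 5. That difference of 0.80 was 0.60 without si-Control 5. For each of these 4 measures the groups did not overlap and the two-sided exact permutation test over libraries gave p = 0.00794, the smallest that 5 against 5 libraries allow, also after Benjamini-Hochberg adjustment over the 4. With the trend with GC content and length removed from each library, the differences in the first 3 shares were 0.674 (exact p = 0.151), -0.769 (exact p = 0.373) and -0.162 (exact p = 0.825) percentage points, so that none of the 3 passed and that of *Plod2* turned. For the *Serpinh1* ratio the value with the trend removed is not reported here. With the offset in edgeR, *Serpinh1* was at 0.22 (adjusted p = 0.419), *Col1a1* at -0.52 (adjusted p = 1.7e-05) and *Col1a2* at -0.07 (adjusted p = 0.214).

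**Figure D2:**
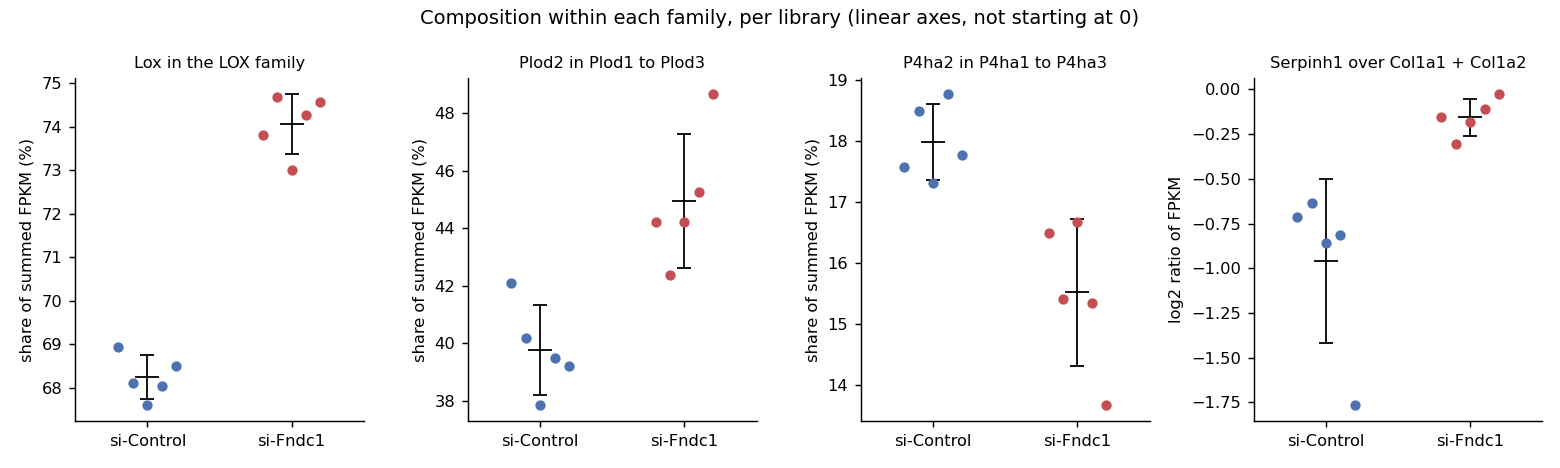
Share of each family's summed FPKM taken by *Lox*, *Plod2* and *P4ha2* (percent) and the log2 ratio of *Serpinh1* to *Col1a1* plus *Col1a2*, per library (vertical axes linear, not starting at 0); points are libraries in order of their number and black bars the mean and SD. In every panel the 5 si-*Fndc1* libraries are apart from the 5 si-Control libraries, by a narrow margin for *Plod2*.

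GC content moved with the direction of the changes. Across the 11185 tested genes with a GC content and a length, the log2 fold change fell with the GC content of the transcript (Spearman correlation across genes -0.523, as a description, since genes are not independent replicates and share the same 10 libraries). The 3 genes that rose had a GC content of 42.6% to 45.7% and the other 7 of 51.1% to 60.8%, and the median of all tested genes was 50.5%. With an offset for GC content and length in each library, 2 of the 10 genes were called, against 22.6% of all genes in that fit and 5 of the 10 in the same genes without the offset.

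With the offset, *Loxl1* still fell (log2 fold change -0.14, 95% interval -0.20 to -0.08, adjusted p = 0.00467 by edgeR) and was the only one of the 10 genes to keep both its direction and its call. *Plod1* turned from a fall to a rise of 0.09 (adjusted p = 0.0362). *Lox* went to -0.04 (adjusted p = 0.411), *Plod2* to 0.01 (adjusted p = 0.846) and *P4ha1* to 0.05 (adjusted p = 0.299). The calls of *Lox*, *Plod2* and *P4ha1*, the direction of *Lox* and the called fall of *Plod1* thus rest on fold changes taken without such an offset. Since the trend separates the same libraries as the siRNA, a trend made in library preparation and a response of the cells that goes with GC content cannot be told apart.

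**Figure D3:**
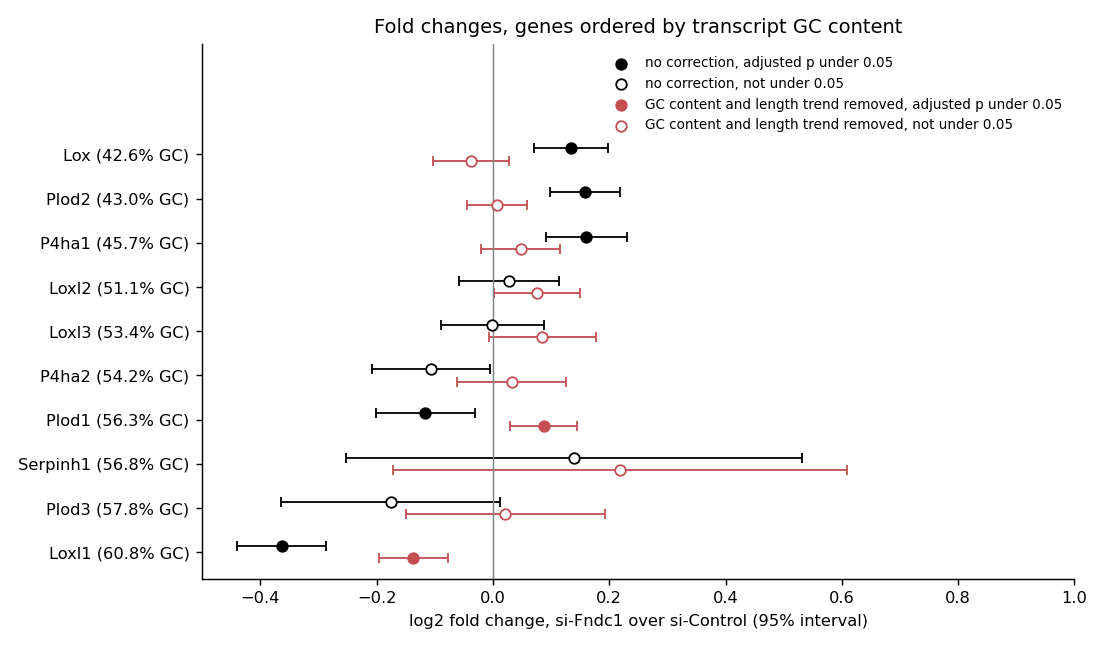
Log2 fold change of si-*Fndc1* over si-Control (horizontal axis) with its 95% interval for the 10 genes, ordered from low to high GC content, without correction (black) and with the GC content and length trend removed (red); filled points have an adjusted p under 0.05. The black points run from 0.13 for *Lox* to -0.36 for *Loxl1*, and only *Loxl1* is filled on the same side of 0 in both fits.

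Other genes of collagen synthesis and of lysyl oxidase function were counted by list. Of 64 genes listed, 51 were tested, of which 7 rose, 18 fell and 26 did not pass, and with the GC content and length offset 6 rose and 7 fell. The falls were led by the substrates of the enzymes: all 6 tested fibrillar collagen genes fell, against 17.2% of all tested genes. *Col1a1*, the alpha 1 chain of collagen I, measured 375 ± 17.6 FPKM in si-Control and 217 ± 9.78 FPKM in si-*Fndc1* (SD, n = 5 each), which is a log2 fold change of -0.78 (adjusted p = 5.6e-06 by edgeR), *Col1a2* from 217.6 ± 11.64 to 169.97 ± 5.10 FPKM (log2 fold change -0.35) and *Col3a1* from 496 ± 18.4 to 425 ± 9.50 FPKM (log2 fold change -0.21). With the offset 2 of the 6 still fell, *Col1a1* by -0.52 (adjusted p = 1.7e-05) and *Col5a1* by -0.10 (adjusted p = 0.0101).

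Among genes of procollagen processing, 3 of 5 tested fell and none rose, against 17.2% of all tested genes lower. The 2 that did not pass were *Pcolce* and *Pcolce2*, which encode enhancers and not enzymes that cut the procollagen ends. *Adamts2*, the N-propeptidase of procollagen I, had the largest fall (log2 fold change -0.36, adjusted p = 4e-05 by edgeR). With the GC content and length offset 1 of the 5 fell, *Adamts2* (log2 fold change -0.17, adjusted p = 0.00706). In the prolyl 3-hydroxylase complex, *Ppib*, which encodes cyclophilin B, rose (log2 fold change 0.39, adjusted p = 0.000249) and *P3h3* (log2 fold change -0.32, adjusted p = 0.0301) and *Crtap* fell, of 5 tested. The *P3h3* call was lost without si-Control 2, 4 or 5 or si-*Fndc1* 2, 4 or 5 (adjusted p up to 0.0704). With the offset *Ppib* still rose (log2 fold change 0.43), while *P3h3* (-0.05, adjusted p = 0.775) and *Crtap* (-0.13, adjusted p = 0.123) were not called. Of 8 other collagen chaperones and export factors, 2 fell and none rose, with *Fkbp9*, a prolyl isomerase of the endoplasmic reticulum, the larger (log2 fold change -0.17, adjusted p = 0.000605), and 3 fell with the offset, *Fkbp9* among them (-0.18, adjusted p = 0.00042). The 1 tested collagen glycosyltransferase (*Colgalt1*) and the 1 tested ascorbate transporter (*Slc23a2*) did not pass.

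Around the lysyl oxidases, *Loxl4*, the remaining family member, fell at a level of 3.89 FPKM in si-Control (log2 fold change -0.15, adjusted p = 0.0427 by edgeR) and was at 0.01 with the offset, and its call was lost when any library other than si-*Fndc1* 1 was left out (adjusted p up to 0.101). Of 6 tested partners of lysyl oxidase, *Postn*, a matricellular protein that aids activation of lysyl oxidase, rose (log2 fold change 0.19, adjusted p = 0.0105), and *Fbn1*, which encodes the microfibril protein fibrillin (log2 fold change -0.28, adjusted p = 0.000166), and *Fn1* fell. With the offset *Fbn1* still fell (log2 fold change -0.10, adjusted p = 0.0219), *Postn* was at 0.12 (adjusted p = 0.148) and *Fn1* turned to 0.07 (adjusted p = 0.0914). *Efemp2*, not called without the offset (-0.07, adjusted p = 0.245 by edgeR), rose with it (0.14, adjusted p = 0.0403). Of 3 tested copper genes, the importer *Slc31a1* and the copper chaperone *Atox1* (log2 fold change 0.21, adjusted p = 0.0199) rose, and *Atp7a*, which loads copper onto secreted enzymes, had a log2 fold change of -0.13 (adjusted p = 0.160). With the offset *Atox1* still rose (log2 fold change 0.16, adjusted p = 0.0183) and *Slc31a1* turned to -0.03 (adjusted p = 0.491).

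Of 13 HIF targets and oxygen sensors, all tested, 3 rose and 2 fell, which is near the share of all tested genes called. *Bnip3*, a mitophagy receptor, had the largest rise (log2 fold change 0.40, adjusted p = 0.000178 by edgeR) and *Egln2*, a HIF prolyl hydroxylase, the largest fall (log2 fold change -0.26, adjusted p = 0.00242). The other gene that fell, *Slc2a1*, changed by nearly as much as *Egln2* (log2 fold change -0.26, adjusted p = 0.00557). With the GC content and length offset *Bnip3* was at 0.10 (adjusted p = 0.260), *Egln2* at -0.03 (adjusted p = 0.679) and *Slc2a1* at -0.16 (adjusted p = 0.0570). In that fit none of the 13 fell and 2 rose, *Hif1a* (log2 fold change 0.11, adjusted p = 0.0282 by edgeR) and *Egln1* (0.21, adjusted p = 0.0145). Without the offset *Hif1a* also rose (0.29, adjusted p = 8.87e-05), and *Egln1* was not called (0.10, adjusted p = 0.187). *P4ha1*, *Plod2* and *Lox*, which are known as targets of the same factor, had log2 fold changes between 0.13 and 0.16. *P4ha2*, whose family is known for the same, had -0.11 (adjusted p = 0.1003 by edgeR). With the offset *P4ha1* was at 0.05, *Plod2* at 0.01, *Lox* at -0.04 and *P4ha2* at 0.03, and none of them was called.

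**Figure D4:**
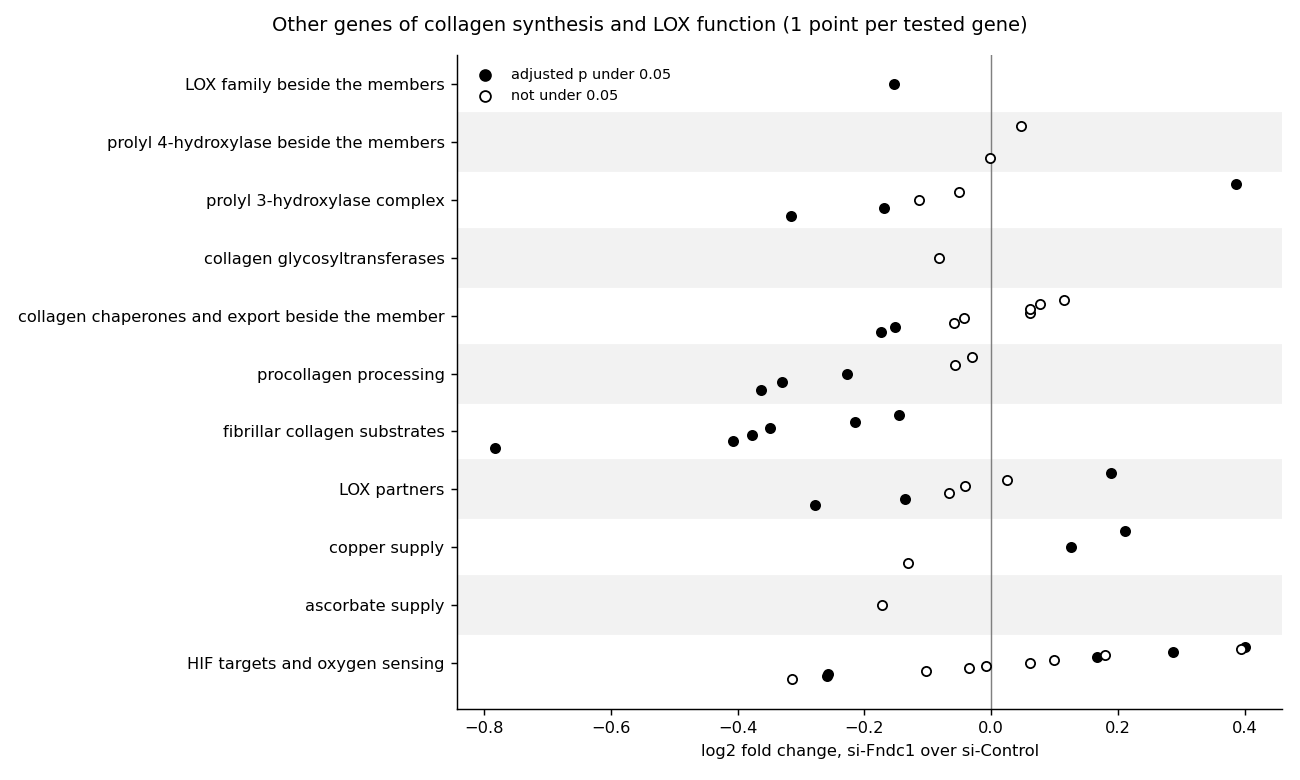
Log2 fold change of si-*Fndc1* over si-Control (horizontal axis) for the 51 tested genes of 11 lists of collagen synthesis and lysyl oxidase function (rows), 1 point per gene, filled where the adjusted p was under 0.05. All 6 fibrillar collagen genes are filled and left of 0, with *Col1a1* at -0.78, while the other lists with more than 2 genes hold open points as well.

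The genes whose log2 CPM profile over the 10 libraries was closest to that of *Loxl1* were *Ggcx* and *Insyn1*, with a root mean square difference of 0.0211 and 0.0278 on the log2 scale, where *Loxl1* itself varied by 0.187. For *Plod2*, which varied by 0.0844, they were *Antxr2* (0.0256) and *Tomm70a* (0.0269), and for *P4ha1*, which varied by 0.0888, *Gabpa* (0.0200) and *Slc25a37* (0.0284). These 3 members had the smallest p-values of the 10, and the profiles were compared over libraries of the same contrast, so that the likeness includes the difference between the groups.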

How the data were processed

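Polyadenylated RNA of 10 C2C12 samples was sequenced, 5 si-Control and 5 si-*Fndc1*, grouped by the labels. The authors deposited raw counts per gene and, beside them, FPKM values scaled by transcript length and library size, with 0.0001 entered for genes without a read. The sources disagree on how reads were aligned (TopHat to mm10 with htseq-count in the paper's methods, STAR to mm9 in the series description, GRCm39 with cutadapt 1.9 and FastQC in the submitters' processing notes), the paper's methods name fewer libraries, and the table names no build, so gene coordinates are given as it lists them. Strand use in counting and the tool behind FPKM are not given in the sources used here. No library was a near copy of another of its group (lowest chi-square per degree of freedom 41.02).

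Counts were tested with edgeR 4.0.16 (TMM, quasi-likelihood, Benjamini-Hochberg over the 13548 genes whose mean FPKM reached 0.5) in R 4.3.3, without a replicate term. A gene was called at an adjusted p under 0.05. The paper names DESeq2, run as an alternative (1.42.0) beside limma (3.58.1) on log2(FPKM + 1) and log2(FPKM + 0.1), other filters and scaling, leaving out each library, and an offset for GC content (longest coding transcript, NCBIM37) and length by robust splines of 5 degrees of freedom for 11185 genes, including all 10 members. The scripts were tested on simulated data. Shares of summed FPKM were compared by two-sided exact permutation over libraries (252 arrangements). Tables were handled in Python 3.11.15. Same-numbered libraries did not deviate together (correlations from -0.055 to 0.064), so the numbers were not taken as pairs.

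The members, lists and tests were chosen with earlier results of these data known. Named genes are all members, *Fndc1*, the called gene with the largest rise and fall in each list, *Col1a1*, *Col1a2* and *Col3a1*, overlapping genes, and the 2 nearest profiles of the 3 members with the smallest p. *P4ha3*, *P4hb*, *Col5a1*, *Crtap*, *Fn1*, *Efemp2*, *Slc31a1*, *Atp7a*, *Colgalt1*, *Slc23a2*, *Hif1a*, *Egln1*, *Dcn* and *Pdgfrb* were named after their values were seen. So were *Pcolce*, *Pcolce2*, *Slc2a1*, *Myod1*, *Mymk*, *Ckm*, *Mymx*, *Des*, *Myf5* and *Myog*.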

Additional observations from a re-analysis of the deposited data

Results flagged for a closer look

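In 56 groups of 5 libraries, a lowest or highest value lay apart from the other 4 in 3, by a gap over range above 0.71, where chance gives about 1 group in 20. *Serpinh1* in si-Control 5, at 166 FPKM, had a gap of 0.908 of the group's range. *Serpinh1* in si-*Fndc1* 2, at 319.8 FPKM, had a gap of 0.740 of the range, in a group with a spread of 16.0 FPKM (SD, n = 5). The log2 ratio of *Serpinh1* to *Col1a1* plus *Col1a2* in si-Control 5, at -1.77, had a gap of 0.803 of the range and rests on the same low *Serpinh1* value.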

How the results depend on the processing

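The call and direction of *Loxl1* were kept under all 21 alternative fits. *Lox* kept its call and direction in all but 3: -0.041 with limma on quantile-normalized FPKM, -0.038 with the GC content and length offset and -0.038 with that offset and the replicate block. With the offset, without and with the block, other signs turned to 0.085 and 0.084 for *Loxl3* (0.0053 on the same genes without it), 0.087 and 0.087 for *Plod1*, 0.021 and 0.021 for *Plod3*, 0.032 and 0.031 for *P4ha2* and 0.0062 and 0.0053 for *Loxl4*. *Serpinh1* was at -0.0040 with quantile normalization. Leaving out single libraries gave -0.022 to 0.018 for *Loxl3* and -0.022 to 0.19 for *Serpinh1*. The cause of these turns was not tested. Over *Col1a1*, *Col1a2*, *Col3a1*, the members and the called gene with the largest rise and fall of each list, in all settings, 411 values kept their direction and side of the threshold, 50 lost the call, 20 turned and 1 gained a call (*Plod3* without si-Control 1).

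The number of members that rose was 1 with the offset and 0 with offset and block, and the number that fell was 1 without a filter, with the replicate block, with quantile normalization, with the offset and with offset and block, and 1 to 2 with libraries left out. Listed pathway genes that rose were 2 with offset and block, and those that fell were 7 with the offset and 6 with offset and block, from 18. Over all tested genes, calls went from 4663 to 2525 with the offset (4244 in the same genes without it) and to 1638 with offset and block. The fit on the same genes without the offset and the shares with the trend removed were chosen after seeing the data, and these shares changed by 0.674 for *Lox*, -0.769 for *Plod2* and -0.162 for *P4ha2* percentage points. With libraries blocked by number, sign-flip tests of the same differences (5.83, 5.19, -2.47 and 0.80) gave an exact p = 0.0625 each, the smallest that 5 pairs allow, so that they could not pass. The block left the calls of *Lox*, *Loxl1*, *Plod2* and *P4ha1* in place and brought *Plod1* to an adjusted p of 0.114 by edgeR. Same-numbered libraries correlated by -0.055 to 0.064, and 1 of 5 numbers was its own best partner.

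Counts per member and library ran from 3309 to 125287. Whether depth or the spread between libraries limited the tests of these genes was not tested.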
